A study of Mus musculus with 30 samples.

Results

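Tumors from DIO-CCR mice were compared with tumors from DIO-VSG mice across 19505 genes, using 6 tumors per group, which are 12 of the 30 tumors of the series, with 1 array per tumor. The members were taken by the group given in the labels, and no measured value was used to choose them. All mice were female C57BL/6NCrl animals given either sham surgery or vertical sleeve gastrectomy (VSG), an operation that removes most of the stomach, and E0771 cells, a C57BL/6 mouse mammary carcinoma line, were injected into mammary fat pad 4 at 25 weeks from the start of the diets. Both groups had first been made obese on a 60% high-fat diet (DIO, diet-induced obesity). DIO-CCR mice then had sham surgery and chronic calorie restriction (CCR), a fixed daily cut in calories, whereas DIO-VSG mice had the gastrectomy and were then given a low-fat diet. Surgery, calorie supply and diet therefore all differed between the groups and cannot be told apart. The other 3 groups, used here to place levels and, in the fit over all 30 arrays, to estimate the spread between tumors, were never-obese controls (CON-LFD), mice kept obese (DIO-HFD) and mice under intermittent calorie restriction (DIO-ICR).

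A tumor grown in the fat pad holds carcinoma cells together with immune cells, vessels, fibroblasts and often some of the tissue around it, which can be fat, skeletal muscle of the body wall or the inguinal lymph node. Calorie restriction is known to lower insulin and leptin and to impose a daily meal rhythm, and feeding time is a strong signal for the circadian clock of peripheral tissues. In whole-tumor RNA, fewer cells of a type and less RNA per cell cannot be told apart.

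Values are log2 expression levels, so a difference of 1 is a factor of 2, and the difference is always DIO-CCR minus DIO-VSG. Array medians lay between 6.41 and 6.79 over the series, and the mean correlation of an array with its own group was 0.989 to 0.992 in DIO-CCR and 0.977 to 0.989 in DIO-VSG, lowest for DIO-VSG 1 (the number is the replicate). Of the epithelial markers, Krt8 had medians of 9.05 in DIO-CCR and 10.23 in DIO-VSG, while Krt18, Epcam and Cdh1 had medians of 4.03 to 5.36; without a detection call, no marker's presence was judged from its level. Macrophage markers Adgre1, Csf1r and C1qa had medians of 11.93 to 13.57 over both groups.

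Marker transcripts of neighbouring tissues were unevenly spread, with those of lymph node and muscle in DIO-VSG tumors and the adipocyte score highest in a DIO-CCR tumor. Whether these transcripts came from tissue outside the tumor was not tested. For each tumor the mean level of a marker list was set against the median array of the series. Lymph node genes stood 4.65 above that array in DIO-VSG 1 and 1.03 above it in DIO-VSG 5. Skeletal muscle genes stood 5.2 above it in DIO-VSG 4 and 1.74 above it in DIO-VSG 3. With a limit of 1, 4 of 6 DIO-VSG tumors and 0 of 6 DIO-CCR tumors held lymph node or muscle transcripts. The adipocyte score exceeded the same limit in DIO-CCR 3 (3.53), DIO-CCR 5 (1.32) and DIO-VSG 1 (2.74).

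**Figure D1:**
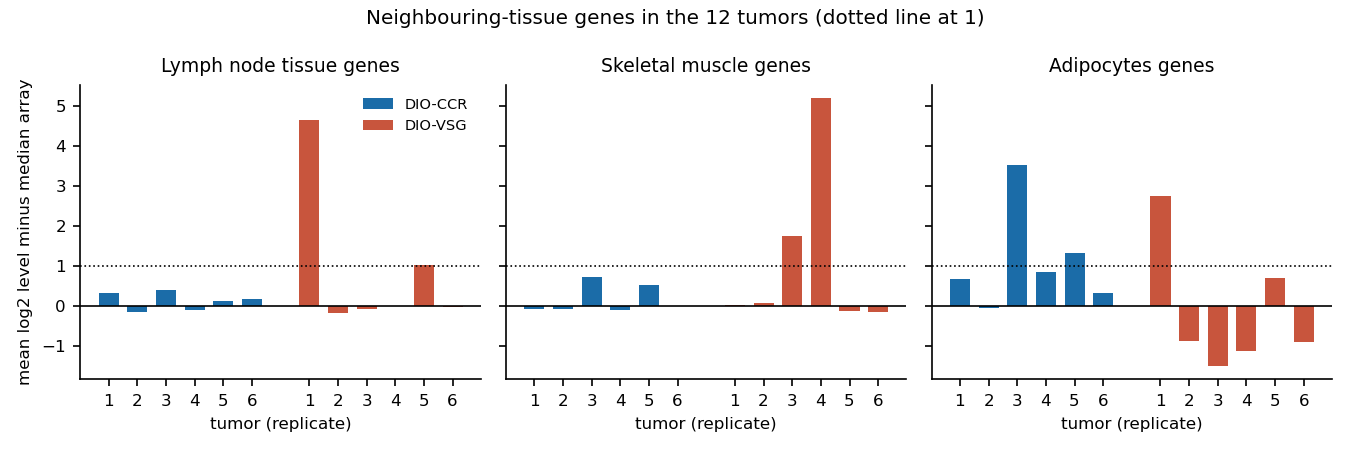
Mean log2 level of lymph node, skeletal muscle and adipocyte genes minus the median array, for each of the 6 DIO-CCR (blue) and 6 DIO-VSG (red) tumors, with a dotted line at 1. Lymph node genes reach 4.65 in DIO-VSG 1 and muscle genes 5.2 in DIO-VSG 4, and adipocyte genes are highest in DIO-CCR 3 at 3.53.

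Few single genes separated the groups. At an adjusted p under 0.05, 10 of 19505 genes passed (0.0513%), of which 3 were higher in DIO-CCR (0.0154%) and 7 were lower (0.0359%). At an unadjusted p under 0.05 there were 1824 (9.35%), 1057 higher (5.42%) and 767 lower (3.93%). All 6 DIO-CCR tumors lay above all 6 DIO-VSG tumors in 63 genes (0.323%) and below them in 46 (0.236%). The median difference over all genes was 0.02 and the median standard error 0.179. No gene passed when DIO-VSG 2, 4, 5 or 6 or DIO-CCR 3 or 4 was left out, and 15 passed without DIO-VSG 3, while the differences moved little (Rgs16 between -2.32 and -1.96, Mcur1 between 0.59 and 0.72). In a fit of the 12 arrays alone no gene passed (lowest adjusted p = 0.0803, with 1518 genes at an unadjusted p under 0.05). Without the tumors with lymph node transcripts 7 genes passed, 3 of them (Mcur1, Rgs16 and Plat) among the 10, and without the tumors with muscle transcripts 1 passed, which was not among the 10. Without either kind, only 2 DIO-VSG tumors were left against 6 DIO-CCR tumors. In that fit all 10 lost their call (adjusted p from 0.24 to 0.529) and kept their sign. The differences were 0.66 for Mcur1, 0.84 for Slc19a2, 0.54 for Cry1, -0.65 for Irf3 and -0.78 for Irak2. They were -0.83 for Synpo, -0.89 for Cyp4f16, -1.23 for Banp, -1.58 for Plat and -2.30 for Rgs16.

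Rgs16, which shortens signalling through G protein-coupled receptors, had the largest fall among genes that passed. Its level ran from 6.40 (median 6.88) to 8.18 in DIO-CCR and from 8.63 (median 9.0) to 9.86 in DIO-VSG. All DIO-CCR tumors were below all DIO-VSG tumors. The difference was -2.10 ± 0.38 (SE), 4.27-fold lower (adjusted p = 0.0281), and -2.30 ± 0.54 without any tumor holding lymph node or muscle transcripts (adjusted p = 0.24). Means of 8.51 in CON-LFD, 9.31 in DIO-HFD and 8.43 in DIO-ICR placed DIO-CCR (7.08) lowest of the 5 groups.

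Plat encodes tissue plasminogen activator, the protease that turns plasminogen into plasmin. It ran from 10.43 (median 10.91) to 11.20 in DIO-CCR and from 11.41 (median 12.24) to 12.65 in DIO-VSG, with no overlap. The difference was -1.32 ± 0.25, 2.49-fold lower (adjusted p = 0.0314). Plat was the 1 gene of 10 measured in the plasminogen activation list that passed, against 0.0513% of all genes, and the list median was 0.06. Its mean was as low in DIO-ICR (10.75) as in DIO-CCR (10.88), and higher in CON-LFD (12.23), DIO-HFD (11.75) and DIO-VSG (12.20). DIO-ICR differed from DIO-VSG by -1.45 ± 0.25 (adjusted p = 0.0298), a comparison that shares the DIO-VSG arrays and in which 0.0308% of genes passed.

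Both Irf3 and Irak2, which act in innate immune signalling, fell. Irf3, the transcription factor that switches on type I interferon genes after nucleic acid sensing, ran from 9.68 (median 9.82) to 10.20 in DIO-CCR and from 10.39 (median 10.48) to 10.71 in DIO-VSG. The groups did not overlap, and the difference was -0.61 ± 0.11 (adjusted p = 0.0281). Of 28 genes of the type I interferon response, 0 had an unadjusted p under 0.05 in limma, against 9.35% of all genes, and the median was 0.04. Irak2, a kinase of the Toll-like and interleukin-1 receptor pathways, ran from 9.52 (median 9.76) to 10.52 in DIO-CCR and from 10.41 (median 10.73) to 10.96 in DIO-VSG. Only DIO-CCR 5 reached into the DIO-VSG range, and the difference was -0.86 ± 0.17 (adjusted p = 0.0468).

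Synpo, Banp and Cyp4f16 also fell. Synpo, an actin-binding protein, ran from 10.84 (median 11.14) to 11.58 in DIO-CCR and from 11.72 (median 12.04) to 12.23 in DIO-VSG, a difference of -0.83 ± 0.15 with no overlap (adjusted p = 0.0281). Banp, a DNA-binding protein, ran from 10.42 (median 10.84) to 11.51 in DIO-CCR and from 11.50 (median 12.03) to 12.41 in DIO-VSG. Those ranges touched, and the difference was -1.13 ± 0.21 (adjusted p = 0.0281). Cyp4f16, of a cytochrome P450 family that hydroxylates fatty acids, ran from 9.76 (median 10.05) to 10.39 in DIO-CCR and from 10.70 (median 10.88) to 11.07 in DIO-VSG, with no overlap and a difference of -0.83 ± 0.16 (adjusted p = 0.0281).

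Among the genes that rose, Mcur1, a regulator of the mitochondrial calcium uniporter, had the lowest adjusted p (0.0275). It ran from 10.11 (median 10.42) to 10.74 in DIO-CCR and from 9.71 (median 9.78) to 9.85 in DIO-VSG, which was a narrow range, and the difference was 0.65 ± 0.11 with no overlap. Slc19a2, a thiamine transporter, ran from 11.95 (median 12.30) to 12.75 in DIO-CCR and from 10.48 (median 11.46) to 11.99 in DIO-VSG. DIO-VSG 3 reached the lowest DIO-CCR tumor, and the difference was 1.08 ± 0.21 (adjusted p = 0.0352).

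**Figure D2:**
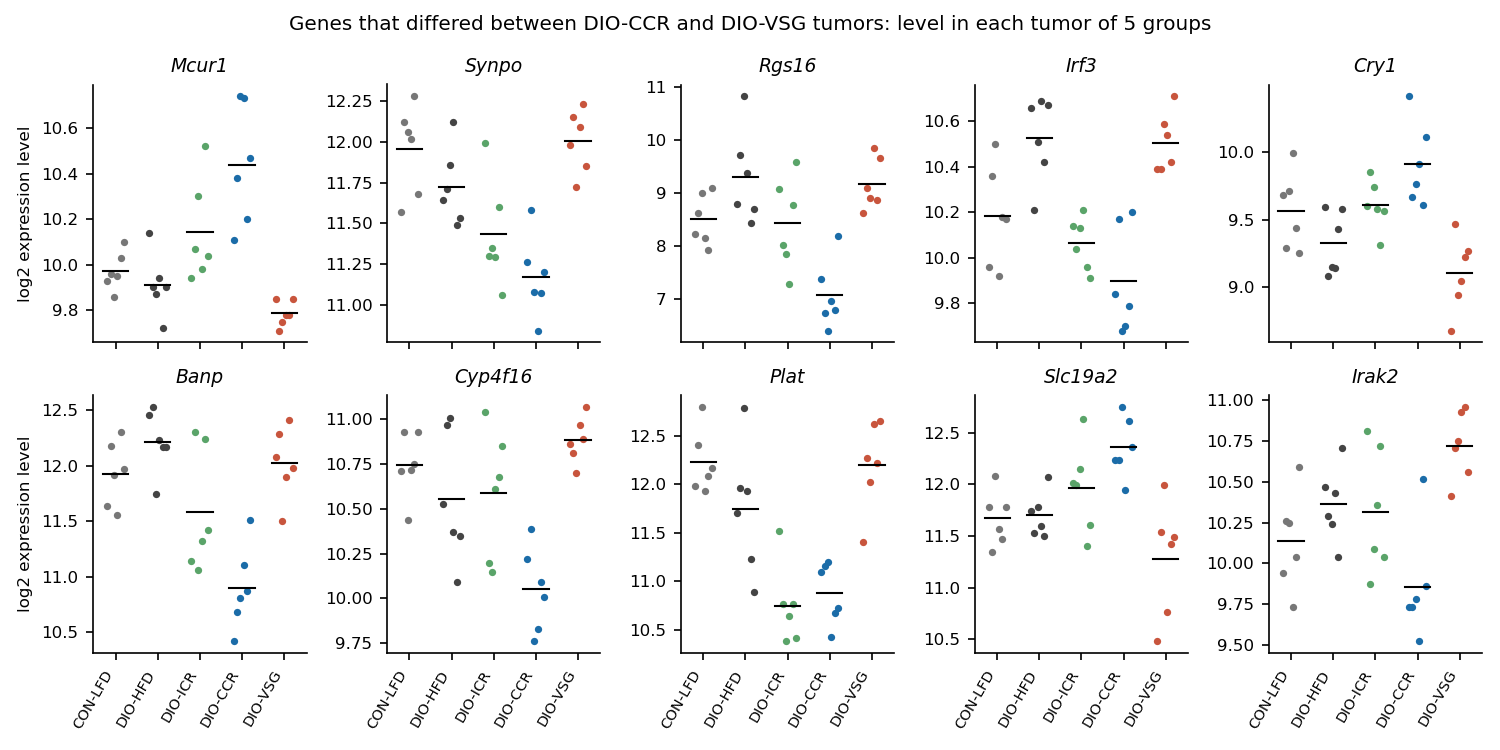
Log2 level of the 10 genes that passed, in each tumor (point) of all 5 groups, with the group mean as a line; the axes do not start at 0. Rgs16 has its lowest mean in DIO-CCR (7.08), and Plat is low in both DIO-CCR (10.88) and DIO-ICR (10.75).

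The third rise belonged to the circadian clock, in which the activators Clock and Arntl drive the Per and Cry repressors and the Nr1d1 and Nr1d2 repressors through E-box sites. Cry1 ran from 9.61 (median 9.84) to 10.41 in DIO-CCR and from 8.68 (median 9.14) to 9.47 in DIO-VSG. All DIO-CCR tumors were above all DIO-VSG tumors, and the difference was 0.81 ± 0.15, 1.75-fold (adjusted p = 0.0281). Without any tumor holding lymph node or muscle transcripts it was 0.54 ± 0.21 (adjusted p = 0.529). Nr1d1, which encodes the repressor REV-ERB alpha, ran from 9.86 (median 10.52) to 11.05 in DIO-CCR and from 11.01 (median 11.38) to 11.96 in DIO-VSG. Its ranges touched, and at -0.97 ± 0.20 it did not pass (adjusted p = 0.0737). Of 18 clock genes measured, 1 passed, 3 were higher and 2 lower at an unadjusted p under 0.05, against 0.0513%, 5.42% and 3.93% of all genes, and the median was 0.12. Per2 differed by 0.58 ± 0.22 (adjusted p = 0.393) and Cry2 by 0.43 ± 0.19 (adjusted p = 0.485). The hour at which tumors were collected was not stated in the study's methods or labels, and its part in these values was not tested.

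The promoters of Cry1 and Nr1d1 are shown because the pair moved apart. They are RefSeq promoters of GRCm38.p6, 250 bases before to 50 after the start, 5′ to 3′, with the E-box CACGTG (a palindrome, alike on both strands) in capitals.
Cry1 (chr10:85185005-85185304, minus strand): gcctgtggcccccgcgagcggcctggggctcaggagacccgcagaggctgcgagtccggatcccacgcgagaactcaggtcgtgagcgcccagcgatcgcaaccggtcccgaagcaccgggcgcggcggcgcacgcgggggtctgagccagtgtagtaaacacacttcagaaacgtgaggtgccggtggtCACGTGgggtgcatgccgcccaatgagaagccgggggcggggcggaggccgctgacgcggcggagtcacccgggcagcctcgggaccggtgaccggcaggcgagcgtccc
Nr1d1 (chr11:98775328-98775627, minus strand): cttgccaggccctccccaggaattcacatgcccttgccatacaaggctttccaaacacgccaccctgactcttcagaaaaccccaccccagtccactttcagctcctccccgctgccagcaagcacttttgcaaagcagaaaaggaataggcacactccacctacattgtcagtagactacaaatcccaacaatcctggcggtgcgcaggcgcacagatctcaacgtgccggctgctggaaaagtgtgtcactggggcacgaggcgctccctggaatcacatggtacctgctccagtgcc
The letters CACGTG occurred once in the Cry1 window and not in that of Nr1d1. They were found in 6 of the 21 promoters listed for clock genes and in 7.15% of all 32851 promoters. A match is a description of the letters only.

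Genes of cholesterol synthesis leaned one way without any passing. This pathway is run by the transcription factor SREBP2, which is activated when membranes hold little sterol. All 18 measured members were higher in DIO-CCR, against 54.4% of all genes, with 12 at an unadjusted p under 0.05, against 5.42% of all genes, and a median of 0.44. Hmgcs1, which makes the HMG-CoA used by the pathway, ran from 14.83 (median 15.20) to 15.37 in DIO-CCR and from 14.21 (median 14.73) to 15.03 in DIO-VSG. The groups overlapped, and the difference was 0.50 ± 0.17 (adjusted p = 0.307). Insig1, a sterol-sensing brake on the pathway and itself an SREBP target, ran from 11.84 (median 12.10) to 13.19 in DIO-CCR and from 11.39 (median 11.66) to 12.12 in DIO-VSG, with a difference of 0.66 ± 0.22 (adjusted p = 0.312). Sqle, squalene epoxidase, differed by 0.54 ± 0.18 with all DIO-CCR tumors above all DIO-VSG tumors (adjusted p = 0.307). Hsd17b7 differed by 0.54 ± 0.17 (adjusted p = 0.269). DIO-VSG 1 had the lowest list score, and without the tumors with lymph node transcripts the median was 0.27 with 2 members at an unadjusted p under 0.05. Of 15 genes of fatty acid and lipid synthesis 14 had a positive difference and the median was 0.31. That median was 0.08 without DIO-CCR 3, which had the highest adipocyte score. With the adipocyte score as a covariate it was 0.05, where the cholesterol list had 0.62. Elovl6, a fatty acid elongase, differed by 0.37 ± 0.15 (adjusted p = 0.424).

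The promoters of Hmgcs1 and Insig1 are shown for the sites that SREBP and its partner NF-Y are known to use, with TCACNCCAC (a sterol response element) and CCAAT (the NF-Y box) on either strand in capitals.
Hmgcs1 (chr13:119690101-119690400, plus strand): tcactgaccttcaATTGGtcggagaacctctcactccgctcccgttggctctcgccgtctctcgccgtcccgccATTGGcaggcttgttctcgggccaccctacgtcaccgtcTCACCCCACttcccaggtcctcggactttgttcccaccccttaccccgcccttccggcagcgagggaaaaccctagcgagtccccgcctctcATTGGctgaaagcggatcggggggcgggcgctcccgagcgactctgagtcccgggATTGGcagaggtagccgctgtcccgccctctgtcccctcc
Insig1 (chr5:28071162-28071461, plus strand): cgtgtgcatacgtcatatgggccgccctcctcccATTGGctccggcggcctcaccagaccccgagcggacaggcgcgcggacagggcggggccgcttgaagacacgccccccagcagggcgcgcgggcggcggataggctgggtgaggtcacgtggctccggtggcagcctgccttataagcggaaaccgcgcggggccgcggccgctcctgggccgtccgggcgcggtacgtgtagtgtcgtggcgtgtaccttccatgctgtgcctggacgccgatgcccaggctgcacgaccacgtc
TCACNCCAC was found in 1 of the 17 promoters listed for cholesterol genes, that of Hmgcs1, and in 1.24% of all promoters. CCAAT was found in 14 of the 17, 4 times in Hmgcs1 and once in Insig1, and in 37.4% of all promoters.

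**Figure D3:**
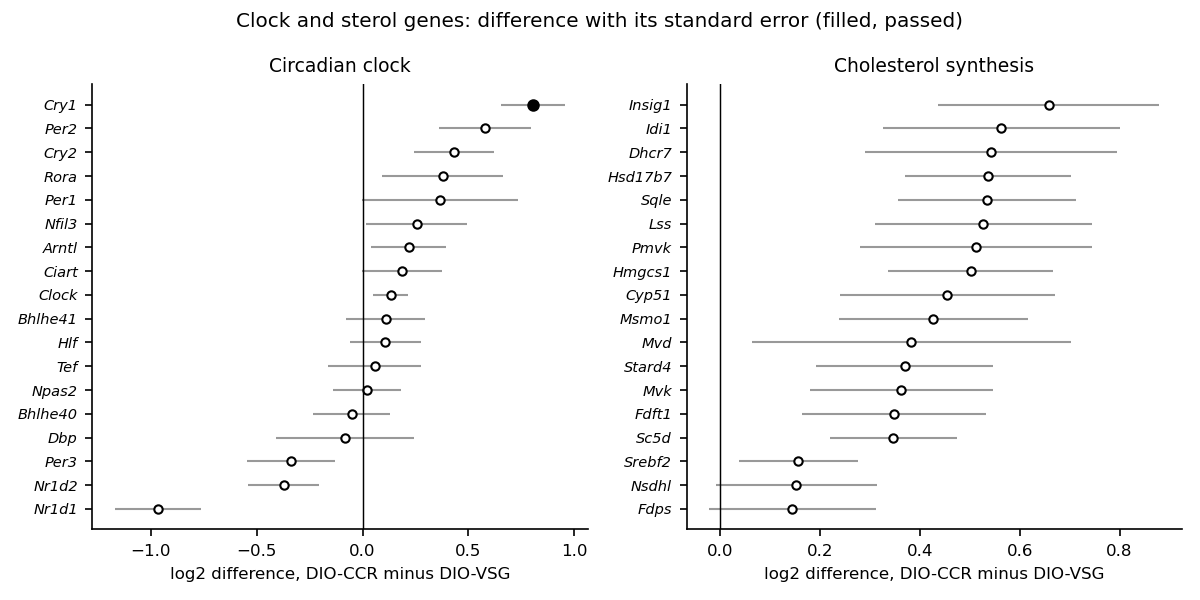
Log2 difference, DIO-CCR minus DIO-VSG, of 18 clock genes (left) and 18 cholesterol synthesis genes (right), with bars of 1 standard error; the filled point passed and open points did not. Cry1 (0.81) and Nr1d1 (-0.97) lie at opposite ends of the clock genes, and every cholesterol gene lies to the right of 0.

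Neutrophil genes were lower in DIO-CCR in sign, again with 0 of 18 passing, 7 lower and 0 higher at an unadjusted p under 0.05, 17 of 18 lower in sign and a median of -0.77, where 3.93% of all genes were lower at that p and 54.4% were higher in sign. Retnlg, a resistin-like protein of neutrophils, ran from 3.49 (median 4.60) to 6.52 in DIO-CCR and from 7.18 (median 8.53) to 9.24 in DIO-VSG. The groups did not overlap, and the difference of -3.51 ± 0.74 missed the threshold (adjusted p = 0.0737). S100a9, a subunit of calprotectin, ran from 5.39 (median 7.44) to 8.82 in DIO-CCR and from 9.60 (median 10.32) to 10.56 in DIO-VSG. These too did not overlap, with a difference of -2.78 ± 0.68 (adjusted p = 0.142). The granule protease Mmp9 differed by -1.38 ± 0.43 (adjusted p = 0.281) and Mmp8 by -1.11 ± 0.42 (adjusted p = 0.397). Il1b, the inflammatory cytokine of myeloid cells, ran from 9.04 (median 10.42) to 10.94 in DIO-CCR and from 10.35 (median 11.89) to 12.10 in DIO-VSG, with DIO-VSG 1 the one low DIO-VSG tumor, and differed by -1.54 ± 0.39 (adjusted p = 0.158). Across the series the means of both genes were higher in CON-LFD and DIO-VSG than in the other 3 groups, though CON-LFD tumors ranged widely, from 8.09 to 13.21 in S100a9. S100a9 had means of 10.38 in CON-LFD, 6.75 in DIO-HFD, 6.28 in DIO-ICR, 7.45 in DIO-CCR and 10.23 in DIO-VSG, and Retnlg had 7.78, 4.4, 4.36, 4.76 and 8.26 in the same order. DIO-VSG exceeded DIO-HFD in S100a9 by 3.48 ± 0.67 (adjusted p = 0.0292), and DIO-CCR differed from DIO-HFD by 0.70 ± 0.67 (adjusted p = 0.757), 2 comparisons that share the DIO-HFD arrays and in which 0.154% and 0.354% of genes passed.

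Genes of cytotoxic cells were the counterpart, with single members higher and most near 0. Of 17 cytotoxic lymphocyte genes and 16 natural killer cell genes, 0 passed, 3 of each were higher and 0 lower at an unadjusted p under 0.05, against 5.42% and 3.93% of all genes, and the medians were 0.19 and 0.28. Gzma, a granzyme, ran from 7.40 (median 8.79) to 10.10 in DIO-CCR and from 6.31 (median 6.91) to 7.58 in DIO-VSG. Only DIO-CCR 3 fell within the DIO-VSG range, and the difference was 1.83 ± 0.41 (adjusted p = 0.0932). Ncr1, the natural killer cell receptor NKp46, ran from 5.91 (median 7.49) to 7.71 in DIO-CCR and from 4.17 (median 5.88) to 6.87 in DIO-VSG, a difference of 1.42 ± 0.37 (adjusted p = 0.158). DIO-VSG 1 was the highest DIO-VSG tumor, and without the tumors with lymph node transcripts the difference was 1.82 (adjusted p = 0.0815). Gzmc differed by 1.66 ± 0.48 (adjusted p = 0.219), Gzmb by 1.24 ± 0.39 (adjusted p = 0.292), the receptor Klrk1 by 0.80 ± 0.28 (adjusted p = 0.326) and Klrb1c by 0.77 ± 0.33 (adjusted p = 0.471).

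**Figure D4:**
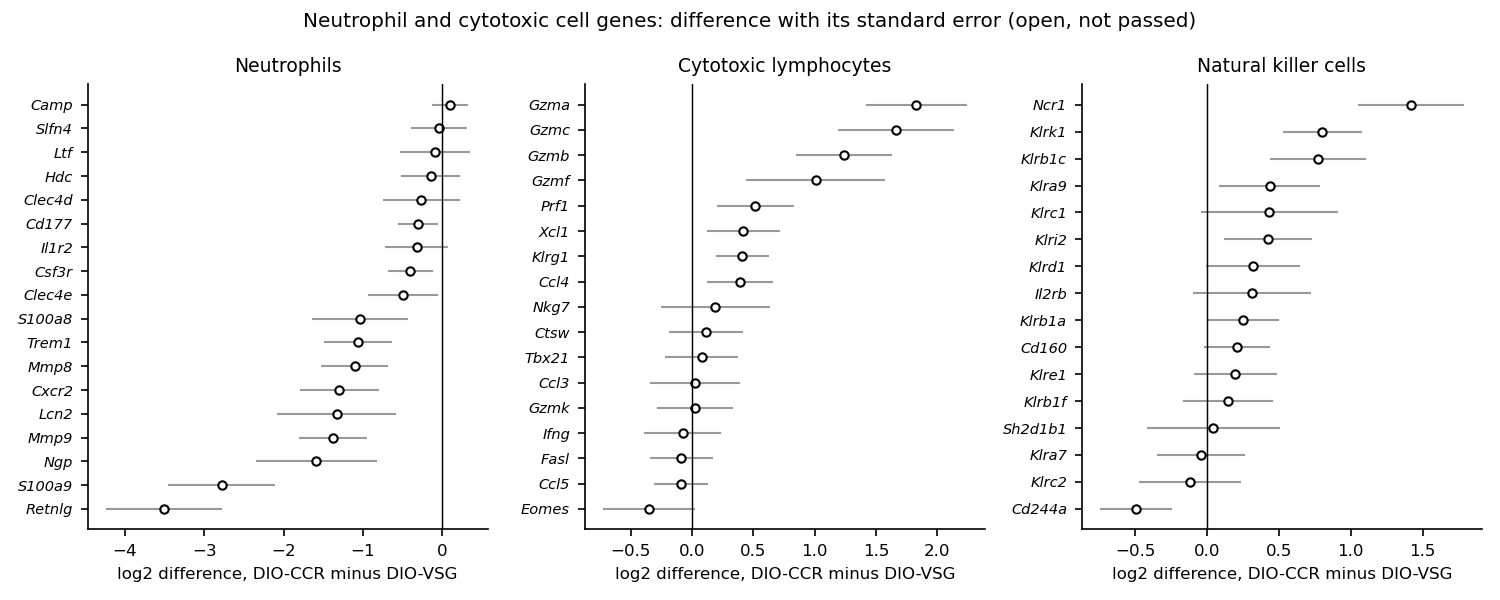
Log2 difference, DIO-CCR minus DIO-VSG, of neutrophil, cytotoxic lymphocyte and natural killer cell genes, with bars of 1 standard error; no gene in these lists passed. Retnlg (-3.51) and S100a9 (-2.78) are lowest, and Gzma (1.83) is highest in the cytotoxic list and Ncr1 (1.42) in the natural killer list.

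The lymphocyte lists turned on DIO-VSG 1. The B and plasma cell list was lower in sign in all 15 members (median -0.99), lymph node genes had a median of -0.79 and T cell genes -0.37. Cd79a, part of the B cell receptor, ran from 3.42 to 4.06 in DIO-CCR and from 3.92 (median 4.08) to 12.68 in DIO-VSG, where DIO-VSG 1 was the top tumor. Without DIO-VSG 1 alone the medians were -0.17, 0.02 and 0.09, and without all tumors with lymph node transcripts -0.04, 0.15 and 0.17. The lymph node list chose those tumors, so its own shift follows from the choice. That list holds B cell genes such as Bank1 and Fcmr, so shifts of the other lymphocyte lists are not independent of the choice. MHC class II genes had a median of -0.46, of -0.06 without DIO-VSG 1 and of 0.12 without the tumors with lymph node transcripts. Skeletal muscle genes, all 20 of which were lower in sign (median -0.85), had a median of 0.23 without the tumors with muscle transcripts, which that list chose. Ttn, the giant sarcomere protein, ran from 3.38 to 4.71 in DIO-CCR and from 3.78 (median 4.23) to 11.13 in DIO-VSG.

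Among adipocyte genes all 18 members had a positive difference, 5 of them at an unadjusted p under 0.05, against 5.42% of all genes, with a median of 1.07 and none passing. Adipoq, the adipocyte hormone adiponectin, ran from 8.64 (median 10.46) to 14.06 in DIO-CCR and from 4.4 (median 6.81) to 13.40 in DIO-VSG. DIO-VSG 1 and DIO-VSG 5 lay within the DIO-CCR range and the other 4 DIO-VSG tumors below it, and the difference was 2.94 ± 1.23 (adjusted p = 0.451). Retn, resistin, differed by 2.91 ± 1.06 (adjusted p = 0.37). Without the tumors with lymph node transcripts, whose adipocyte scores were the highest of the DIO-VSG group, Retn differed by 5.0 (adjusted p = 0.021). Without those with muscle transcripts, whose adipocyte scores were the lowest of that group, it differed by 1.54 (adjusted p = 0.659). The list median was 1.97 and 0.58 in these 2 settings, with 13 and 0 members at an unadjusted p under 0.05. Without either kind Retn differed by 4.36 (adjusted p = 0.24). Lep, leptin, differed by 1.72 ± 0.72 (adjusted p = 0.447) and Plin4, a lipid droplet protein, by 1.21 ± 0.50 (adjusted p = 0.446). With the adipocyte score as a covariate 71 genes passed in place of 10, including all 10. The list median was then -0.05, but the score is the mean of these same genes, so a median near 0 follows from the choice. Among the 71 was the B cell gene Cd79a at -3.59, which differed by -0.31 without the tumors with lymph node transcripts. DIO-VSG 1 had the highest adipocyte score (2.74) and lymph node score (4.65) of its group. With lymph node, muscle and adipocyte scores all as covariates no gene passed.

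Endothelial genes were lower in DIO-CCR in sign in all 17 members, with 11 at an unadjusted p under 0.05 where 3.93% of all genes were lower at that p and 54.4% higher in sign, a median of -0.63 and none passing. Pecam1, an adhesion molecule of endothelium, ran from 9.59 (median 10.54) to 11.01 in DIO-CCR and from 10.90 (median 11.04) to 12.31 in DIO-VSG. The ranges overlapped slightly, and the difference was -0.83 ± 0.23 (adjusted p = 0.199). Emcn differed by -0.84 ± 0.28 (adjusted p = 0.309), Cdh5, the VE-cadherin of junctions, by -0.75 ± 0.26 (adjusted p = 0.326) and Robo4 by -0.67 ± 0.23 (adjusted p = 0.327). Without any tumor holding lymph node or muscle transcripts the list median was -0.36 with 1 member at an unadjusted p under 0.05. Among 18 angiogenic factors the median was -0.21, or -0.02 without the tumors with muscle transcripts, and the platelet-derived growth factor Pdgfb differed by -0.92 ± 0.24 (adjusted p = 0.158), Angpt1 by 1.19 ± 0.46 (adjusted p = 0.4) and Vegfd by 0.48 ± 0.16 (adjusted p = 0.32). Mcam and Pdgfrb, of pericytes, differed by -0.70 ± 0.22 (adjusted p = 0.297) and -0.51 ± 0.17 (adjusted p = 0.312).

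Matrix and adenosine genes included large differences that did not pass. Nt5e, the enzyme CD73 that makes adenosine, ran from 9.62 (median 10) to 11.29 in DIO-CCR and from 11.38 (median 11.68) to 12.77 in DIO-VSG, with no overlap and a difference of -1.67 ± 0.46 (adjusted p = 0.199). Tnc, a matrix glycoprotein, differed by -1.67 ± 0.47 (adjusted p = 0.199), against a median of -0.12 for 26 matrix genes, which was 0.18 without any tumor holding lymph node or muscle transcripts. Ltbp2, which belongs to a family that binds latent TGF-beta, and Tgfb1 itself differed by -1.15 ± 0.28 (adjusted p = 0.142) and -0.26 ± 0.08 (adjusted p = 0.279), both with all DIO-CCR tumors below all DIO-VSG tumors. The 14 TGF-beta response genes had a median of -0.25. Itga6, a laminin receptor, differed by -0.45 ± 0.11 (adjusted p = 0.158), and Krt8 by -1.21 ± 0.56 (adjusted p = 0.507). Of the checkpoint genes Ctla4 differed by 0.95 ± 0.38 (adjusted p = 0.424), Tnfrsf18 by 0.67 ± 0.29 (adjusted p = 0.479) and Ikzf2 by -0.43 ± 0.15 (adjusted p = 0.364), with a list median of -0.20.

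Macrophage and dendritic cell lists had medians near 0. The 22 monocyte and macrophage genes had a median of -0.03, or 0.17 without any tumor holding lymph node or muscle transcripts, with Cd163, a haemoglobin scavenger receptor, at 1.69 ± 0.54 (adjusted p = 0.297) and Mrc1 at 0.61 ± 0.23 (adjusted p = 0.378). The 14 dendritic cell genes had a median of 0.08, or -0.15 without the tumors with muscle transcripts, with Itgax at -1.04 ± 0.35 (adjusted p = 0.307) and Cd209a at 1.08 ± 0.37 (adjusted p = 0.314). Mast cell proteases Tpsb2 and Cpa3 differed by 0.97 ± 0.33 (adjusted p = 0.312) and 0.83 ± 0.35 (adjusted p = 0.446), in a list of 12 with a median of 0.30. The interferon gamma list, with 22 genes, had a median of -0.22, or 0.02 without any tumor holding lymph node or muscle transcripts, and Ubd and Irf8 differed by -1.10 ± 0.36 (adjusted p = 0.3) and -0.55 ± 0.27 (adjusted p = 0.537).

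Lists of growth and energy metabolism lay near the median of all genes, unlike that of cholesterol synthesis. Cell cycle genes had a median of 0.06 over 26 members, with Rrm2, a ribonucleotide reductase subunit, at 0.45 ± 0.14 (adjusted p = 0.27) and E2f1 at 0.42 ± 0.16 (adjusted p = 0.412). The IGF axis and FoxO list had a median of 0.02 over 26 members. Igfbp3, which binds IGF1, ran from 8.52 (median 9.53) to 11.06 in DIO-CCR and from 10.36 (median 10.84) to 11.32 in DIO-VSG, a difference of -1.22 ± 0.35 (adjusted p = 0.219), and the FoxO family gene Foxo3 and FoxO target Ccng2 differed by -0.52 ± 0.19 (adjusted p = 0.364) and -0.48 ± 0.18 (adjusted p = 0.378). Slc6a6, the taurine transporter, differed by 0.41 ± 0.11 with all DIO-CCR tumors above (adjusted p = 0.158), and the cystine transporter Slc7a11 by -1.0 ± 0.46 (adjusted p = 0.511). Tfrc, the transferrin receptor, differed by 0.86 ± 0.25 (adjusted p = 0.243). Hypoxia, glycolysis and oxidative phosphorylation genes had medians of 0.01, -0.02 and 0.05.

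The genes next in rank by p, which did not pass, were of mixed function. Higher in DIO-CCR were Cacna1d, a calcium channel subunit, at 1.55 ± 0.34, Ch25h, cholesterol 25-hydroxylase, at 1.25 ± 0.28, and Cyp2u1 at 1.15 ± 0.25. So were the interleukin-20 receptor subunit Il20rb at 1.05 ± 0.23 and the olfactory receptor Olfr1006 at 0.98 ± 0.20. The sphingosine-1-phosphate phosphatase Sgpp1 was higher by 0.56 ± 0.12 and Cyp20a1 by 0.51 ± 0.11. These genes had adjusted p from 0.071 to 0.0906. Lower was Atf7ip, a partner of a histone methyltransferase, at -0.40 ± 0.08 (adjusted p = 0.0737). Il20rb and Cacna1d levels in DIO-CCR began at 7.92 and 5.69, above the highest DIO-VSG levels of 7.55 and 5.34. Ch25h passed without the tumors with muscle transcripts, at 1.57 (adjusted p = 0.0443). It did not pass without those with lymph node transcripts, at 0.93 (adjusted p = 0.292), or without either kind, at 1.25 (adjusted p = 0.24). Rilpl1, chosen after its values were seen, was the 1 gene that passed without any tumor holding lymph node or muscle transcripts, at -0.88 ± 0.14 (adjusted p = 0.0299), with 2 DIO-VSG tumors left.

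None of the other panel genes passed. Cd8a differed by -0.64 ± 0.61 (adjusted p = 0.8), with DIO-VSG 1 at 10.95 and the next DIO-VSG tumor at 7.54. The macrophage marker Adgre1 differed by 0.01 ± 0.24, the chemokines Cxcl9 and Cxcl16 by -0.23 ± 0.42 and -0.02 ± 0.29, the checkpoint ligand Cd274 by -0.23 ± 0.25, the cytokine Ifng by -0.08 ± 0.31, the proliferation marker Mki67 by -0.04 ± 0.12, the glucocorticoid-induced Fkbp5 by -0.07 ± 0.16, Igf1 by 0.32 ± 0.44 and the collagen Col1a1 by -0.35 ± 0.59, with adjusted p of at least 0.838.

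**Figure D5:**
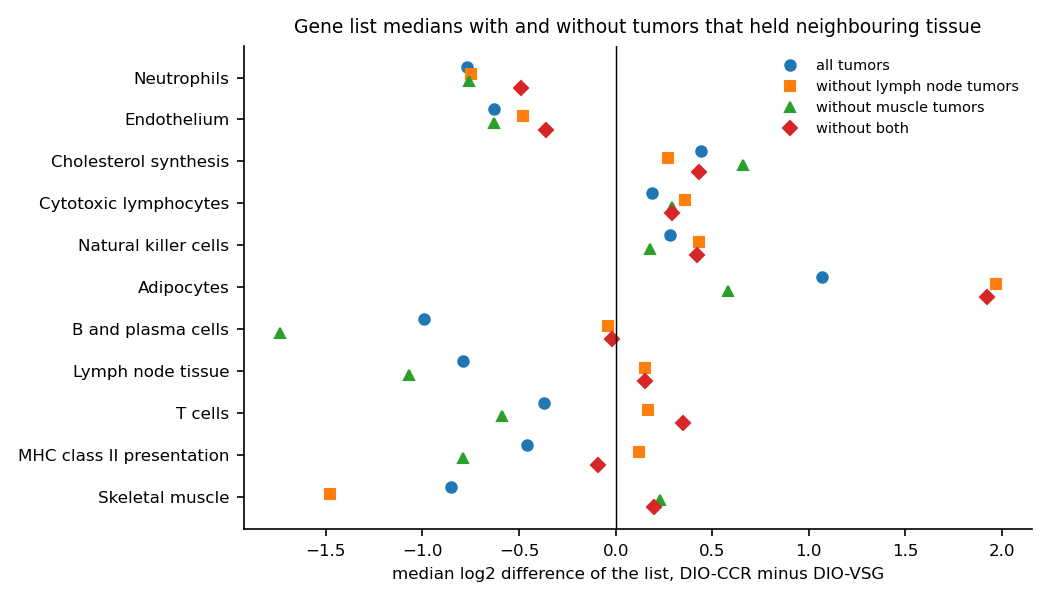
Median log2 difference, DIO-CCR minus DIO-VSG, of 11 gene lists in all tumors and without tumors that held lymph node genes, muscle genes or both. Neutrophil, endothelial and cholesterol genes keep their side of 0 in every setting, at -0.49, -0.36 and 0.43 without both, where 2 DIO-VSG tumors are left. So do cytotoxic, natural killer, adipocyte and B and plasma cell genes, the last at only -0.02 without both. Lymph node, T cell, MHC class II and muscle genes cross 0 in at least 1.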

How the data were processed

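RNA of 30 tumors was measured on Mouse Clariom S arrays, 1 per tumor, of which 12 enter this comparison. Deposited values are on the log2 scale, and the authors obtained them in the Transcriptome Analysis Console with signal space transformation and robust multichip averaging. They were used as deposited. No detection call was used, so a low level is not shown to be above background. The precision is limited by the number of arrays, 6 per group. Of 22206 probe sets 19572 had 1 gene symbol, 2634 had none, and the brightest was kept for 55 symbols with several, which left 19505 genes.

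Group means were fitted over all 30 arrays in limma 3.58.1 (R 4.3.3) with 25 residual degrees of freedom and empirical Bayes moderation, adjusted by Benjamini-Hochberg over 19505 genes. Genes with an adjusted p under 0.05 passed. Values after ± are standard errors. The fit was tested on simulated data. Mice were group housed per the study's methods. The sources do not say which mice shared a cage. The p-values therefore set a difference against the spread between tumors within groups over all 30 arrays, with no term for cage.

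Named genes are those that passed, filled to 10 per direction by p, a panel of 18 (17 measured) and up to 4 genes of each of 50 lists. Members and lists were chosen with earlier results of these data known. Tried were other normalizations, filters and fits, leaving out tumors, and tissue scores as covariates. Fits without tumors with lymph node or muscle transcripts leave out those of all groups, 6 in all. Leaving out tumors with an adipocyte score over 2 was added after seeing the data.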

Additional observations from a re-analysis of the deposited data

Results flagged for a closer look

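In groups of 6 tumors, the highest or lowest value was set apart when its gap to the next, as a share of the range, exceeded Dixon's critical value for 6 samples. Of 212 such groups tested 19 stood apart, and chance alone gives about 1 in 20. DIO-VSG 1 was the tumor in 14 of the 19. In it Cd79a (12.68), Blk (9.89), Cd8a (10.95), Cd8b1 (10.74), Plin4 (8.15), Lep (9.11), Pecam1 (12.31) and Tpsb2 (8.16) were the highest of the DIO-VSG tumors, and S100a10 (15.20) and Il1b (10.35) the lowest. Its scores were also highest for lymph node tissue (4.65), B and plasma cells (5.26), T cells (3.00) and natural killer cells (0.68). DIO-VSG 4 stood apart in the muscle score (5.2) and DIO-VSG 3 in Ch25h (10.17). Among DIO-CCR tumors, Irak2 was highest in DIO-CCR 5 (10.52), Cdh5 lowest in DIO-CCR 4 (9.03) and Adgre1 lowest in DIO-CCR 2 (11.43).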

How the results depend on the processing

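No paired analysis was possible because the labels give no number that ties tumors of one group to those of the other. The count of 10 genes (3 higher, 7 lower) was 10 with quantile normalization, 11 without the 30% dimmest genes, 9 with all probe sets and 10 with array weights, which kept 9 of the 10. It was 1 (1 higher, 0 lower) with median centring, 17 (7 and 10) with trend and robust moderation, 7 (3 and 4) without tumors with lymph node genes, 1 (1 and 0) without those with muscle genes, 1 (0 and 1) without either, 71 (36 and 35) with adipocyte covariate and 2 (0 and 2) without the tumors with the highest adipocyte scores. No gene passed with only the 12 arrays (1518 at an unadjusted p under 0.05) or with all 3 tissue scores as covariates (1337). Those fits had 10 and 22 residual degrees of freedom. The fit without tumors with lymph node genes, in which 7 passed, also had 22. Leaving out 1 tumor gave 0 to 15 genes (0 to 9 higher, 0 to 6 lower). The eicosanoid list median was 0 with either covariate fit, against 0.25. The unfolded protein list was -0.12 and the p53 list 0.02 with all 3 scores. The cause was not tested.

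Signs turned in these genes, none of which had passed. Without tumors with lymph node genes Cd8a was 0.082, Fkbp5 0.06, Mki67 0.038 and Cxcl16 0.075. Without those with muscle genes Col1a1 was 0.213 and Ifng 0.065. Without either, Cry2 was -0.097, Col1a1 0.7, Mki67 0.083, Ifng 0.09 and Cxcl16 0.1. The adipocyte covariate gave Igf1 -0.268, Cxcl16 0.006 and Adgre1 -0.109, and all 3 scores gave Ifng 0.155, Cxcl16 0.1 and Adgre1 -0.202. Without the highest adipocyte scores Cd8a was 0.06, Mki67 0.01, Cxcl16 0.132 and Adgre1 -0.01. Array weights gave Mki67 0.007 and Cxcl16 0.053, median centring Cxcl16 0.008 and quantile normalization Adgre1 -0.024. Leaving out 1 tumor gave Col1a1 -0.66 to 0.04, Cxcl9 -0.45 to 0.027, Fkbp5 -0.15 to 0.01, Mki67 -0.094 to 0.04, Ifng -0.24 to 0.094, Cxcl16 -0.18 to 0.193 and Adgre1 -0.056 to 0.16.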
